A study of Homo sapiens with 3 samples.

Results

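TET1, TET2 and TET3 are the 3 human genes that encode the TET dioxygenases, and the peaks of Myc-tagged Idax at their loci are described here. The loci were fixed as windows on the hg19 build, at chr10:70310000-70460000 for TET1, chr4:106057000-106211000 for TET2 and chr2:74210000-74345000 for TET3. A peak was taken as a member when it shared at least 1 bp with a window. By this rule 0 of the 38 peaks of the DNA-binding mutant and 6 of the 17089 peaks of wild-type Idax were members. No measured value entered the rule for the windows, although earlier results of these data were known when the members were chosen.

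The peaks came from chromatin immunoprecipitation with sequencing in HEK293T cells, a line of human embryonic kidney origin. Stable lines carried Myc-IdaxDBM (a DNA-binding mutant of Myc-tagged Idax), wild-type Myc-Idax, or an empty vector. All 3 shared the host line and the anti-c-Myc agarose gel used for immunoprecipitation, and 1 peak list over the empty-vector cells was analysed for each construct. Although 2 replicates of each condition are stated in the design, the lists hold no replicate values, so nothing below has a replicate error and the depth is unknown. The labels do not say whether a line was 1 clone, which promoter drove the constructs or how much tagged protein each line made. Such differences between the lines cannot be told apart from the effect of the mutation.

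TET enzymes oxidise 5-methylcytosine in DNA to 5-hydroxymethylcytosine and on to further oxidised bases, which starts one route by which methylation is removed. TET1 and the long form of TET3 carry a CXXC zinc finger, a domain that recognises CpG dinucleotides free of methylation. TET2 has none. Its ancestral CXXC finger is held to have become a separate gene, CXXC4, which encodes Idax.

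Because the CXXC finger reads CpG, the starts of the TET genes are shown first as sequence. RefSeq gene starts of build GRCh38.p14 gave 3 promoters for TET1, 2 for TET2 and 2 for TET3, all on the plus strand, and the 250 bases before each start were read. The richest promoter in CpG of each gene is printed, with the other TET2 promoter beside it to show how far the starts of 1 gene differ. Each runs 5′ to 3′, and capitals mark every CG dinucleotide.
TET1 promoter, chr10:68600224-68600473 (GRCh38.p14, plus strand): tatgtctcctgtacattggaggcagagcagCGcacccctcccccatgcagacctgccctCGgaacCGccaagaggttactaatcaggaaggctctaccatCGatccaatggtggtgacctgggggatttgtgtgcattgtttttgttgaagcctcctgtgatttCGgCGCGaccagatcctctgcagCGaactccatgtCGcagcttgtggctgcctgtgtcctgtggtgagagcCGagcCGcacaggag
TET2 upstream promoter, chr4:105145625-105145874 (GRCh38.p14, plus strand): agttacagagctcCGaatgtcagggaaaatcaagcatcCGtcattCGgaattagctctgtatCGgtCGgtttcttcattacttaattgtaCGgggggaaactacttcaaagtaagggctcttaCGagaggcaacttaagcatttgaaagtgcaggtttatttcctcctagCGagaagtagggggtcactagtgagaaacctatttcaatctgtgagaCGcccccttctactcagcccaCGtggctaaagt
TET2 downstream promoter, chr4:105146626-105146875 (GRCh38.p14, plus strand): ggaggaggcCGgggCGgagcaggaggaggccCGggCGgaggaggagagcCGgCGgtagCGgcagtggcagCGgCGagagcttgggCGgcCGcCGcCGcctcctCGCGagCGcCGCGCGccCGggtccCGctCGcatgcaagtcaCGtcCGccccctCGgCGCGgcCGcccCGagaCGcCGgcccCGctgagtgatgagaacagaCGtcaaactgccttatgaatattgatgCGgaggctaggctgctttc
TET3 promoter, chr2:73984660-73984909 (GRCh38.p14, plus strand): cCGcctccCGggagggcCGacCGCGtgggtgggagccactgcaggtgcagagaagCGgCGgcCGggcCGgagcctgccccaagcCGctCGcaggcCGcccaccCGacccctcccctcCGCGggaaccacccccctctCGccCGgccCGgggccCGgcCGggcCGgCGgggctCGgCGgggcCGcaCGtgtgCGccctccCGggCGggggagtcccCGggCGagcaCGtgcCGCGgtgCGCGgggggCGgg

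The 3 genes differed in how much CpG stood before their starts. The TET3 promoter printed above held 37 CpG, more than 96% of the 35114 promoters of the table, and the other TET3 promoter held 27 (percentile 82.3). At TET2 the downstream promoter held 34 CpG (percentile 93.2), whereas the upstream one held 10 (percentile 47.8). The TET1 promoters held 11, 9 and 4 CpG, at percentiles 49.7, 45.9 and 29.3. The printed one, with 11, was the most downstream and overlapped the one with 4 (chr10:68600018-68600267). The one with 9 lay upstream of both (chr10:68560087-68560336). The median over all promoters was 11 (quartiles 3 and 23), so TET1 was near the middle of the table at 2 of its 3 starts and below it at the remaining one. The motif searched was CG, which reads the same on both strands, and 93.9% of all promoters of this length held it at least once.

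**Figure D1:**
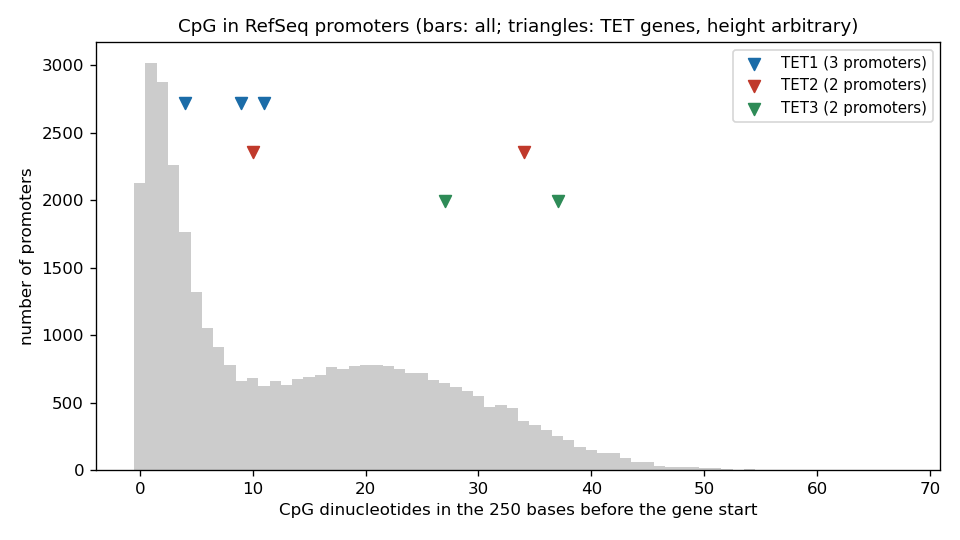
Number of CG dinucleotides in the 250 bases before each RefSeq gene start (x axis) and number of promoters with that number (y axis, grey bars, 35114 promoters). Triangles mark the promoters of TET1, TET2 and TET3 at arbitrary height: both TET3 promoters and 1 TET2 promoter lie at 27 or more, and the TET1 promoters at 11 or fewer.

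GC content was highest before the TET3 starts, and the upstream TET2 start had the lowest of the 7. It was 84% and 79.2% before the TET3 starts, 72.8% and 45.6% before the downstream and upstream TET2 starts, and 57.2%, 51.6% and 50.8% before the TET1 starts, against a median of 58% over all promoters. The ratio of observed to expected CpG was highest at the downstream TET2 promoter (1.04) and lowest at the TET1 promoter with 4 CpG (0.258). The promoters are on another build than the peaks, and no gene model of hg19 was used. The peaks below were therefore given no exon, intron or promoter.

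All 3 windows were empty in the mutant list, and all 3 held peaks in the wild-type list. The TET1 window had 0 mutant and 3 wild-type peaks, the TET2 window 0 mutant and 1 wild-type peak, and the TET3 window 0 mutant and 2 wild-type peaks. An empty window is what most of the genome shows in the mutant list. When windows of the same widths were laid end to end over all chromosomes, mutant peaks touched 0.185% of those of the TET1 width, 0.19% of those of the TET2 width and 0.167% of those of the TET3 width. A window without a mutant peak was thus the rule over the genome, and with 1 list per construct the difference from wild type has no test.

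Wild-type peaks touched 40.2% of the windows of the TET1 width, 40.7% of the TET2 width and 38% of the TET3 width. These windows were not chosen for holding a gene and include unassembled sequence, so the shares are a background for any stretch of that length and not for genes. At least 3 peaks, the number at TET1, were found in 10.3% of the windows, and at least 2, the number at TET3, in 18.6%. Among windows with any peak, 14.2% held more than TET1, 23.9% more than TET3 and 51.9% more than TET2. Over the 3 windows together the density was 1.37 peaks per 100 kb, 2.4 times the 0.57 per 100 kb of the whole wild-type list. That list density runs over the same spans as the background windows, so it too is no background for genes. The flanks within 500 kb of the windows held 1.4 peaks per 100 kb at TET1, 0.2 at TET2 and 2.2 at TET3. An excess at the TET loci was not tested.

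**Figure D2:**
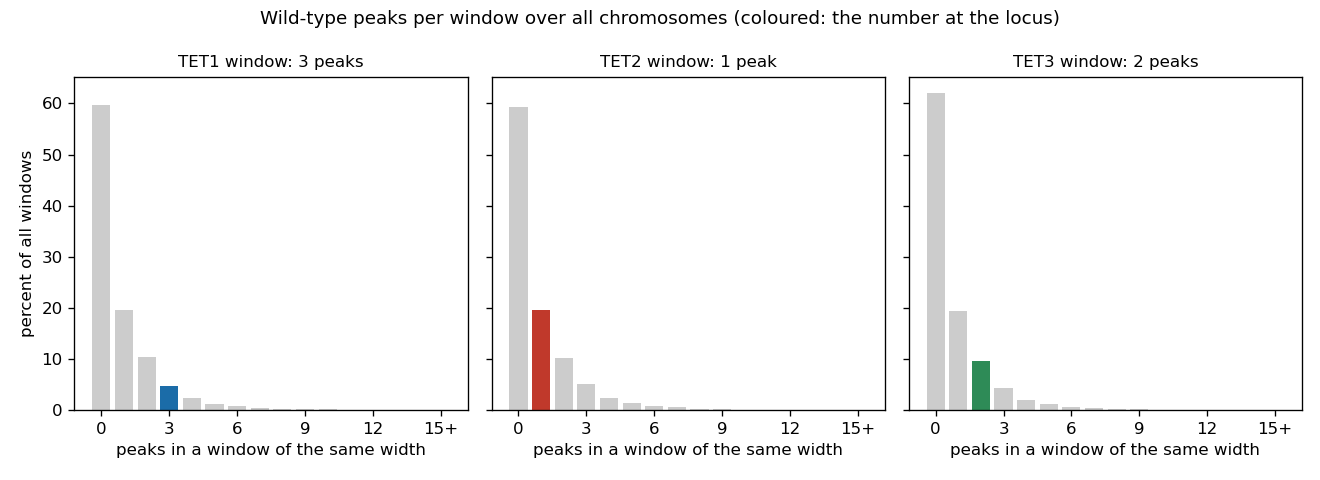
Percent of all windows of the same width (y axis) by number of wild-type peaks they hold (x axis), for the widths of the TET1 (19958 windows), TET2 (19440) and TET3 (22180) windows. The coloured bar is the number found at the locus itself, 3, 1 and 2 peaks.

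TET1 had the strongest of the 6 peaks and, within the windows as given, the most. With windows widened by 50 kb on each side, TET1 and TET3 held 5 peaks each. The first TET1 peak, at chr10:70314732-70315302, was 571 bp wide with a score of 121.19. The second, at chr10:70319715-70322242, was 2528 bp wide with a score of 589.51. The third, at chr10:70359812-70360632, was 821 bp wide with a score of 92.63. The second peak thus stood far above the other 2 in the window, with 6.36 times the score of the weakest and 4.43 times the width of the narrowest. The score is the authors' deposited value, as the peak caller wrote it, and its scale is not stated in the lists.

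The strong TET1 peak ranked 2044 among the 17089 wild-type peaks by score (percentile 88) and stood at percentile 97 by width. Among the 512 peaks within 10% of its width it was unremarkable, at percentile 45.9, where the median score was 611. The narrow first peak showed the opposite. It stood at percentile 28.3 by score in the whole list and 3.22 by width, but at percentile 92 among the 963 peaks of like width, whose median score was 64.4. The third peak was low on both scales, at percentile 19.7 in the list and 30.9 among peaks of like width.

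The first and second TET1 peaks lay 4.41 kb apart, and 77% of the peaks of the list had their nearest neighbour farther away. Their centres were 5.02 and 11 kb from the start of the window. The third began 37.6 kb beyond the second, a distance that 39% of the list exceeded, with its centre 50.2 kb from the start of the window. From there the remaining 99.4 kb of the window (66.2% of its length) held no peak. The 3 peaks covered 3920 bp, or 2.61% of the window.

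TET2 had a single peak of middling strength. It lay at chr4:106066728-106068312, was 1585 bp wide and scored 338.69. This put it at rank 5585 of the list (percentile 67.3) and at percentile 78.7 by width. Among the 606 wild-type peaks of chromosome 4 it stood at percentile 68.5. Among the 2391 peaks of like width, whose median score was 386, it stood at percentile 40.6. The TET2 peak and the strong TET1 peak were the 2 members above the list median of 223.42, and both were near or below the middle for their width.

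The TET2 peak was the most isolated of the 6. The nearest other wild-type peak was 326 kb away, and 2.96% of the list had a nearest neighbour farther away than that. The median distance in the list was 23.2 kb. On the side of lower coordinates the next peak was 650 kb away, and the remaining 143 kb of the window after the TET2 peak (92.7% of its length) were empty. The peak's centre lay 10.5 kb from the start of the window.

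TET3 had 2 weak peaks. The first, at chr2:74211273-74211938, was 666 bp wide and scored 65.2. The second, at chr2:74229529-74230437, was 909 bp wide and scored 122.35, 1.88 times the first. They stood at percentiles 9.03 and 28.7 of the list by score, and at 33.3 and 35.7 among peaks of like width. The strongest TET3 peak was thus about as strong as the first TET1 peak (121.19) and far below the TET2 peak. Scores have no error here, so a small gap such as that between 122.35 and 121.19 cannot be read as an order.

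The TET3 peaks lay 17.6 kb apart, with centres 1.61 and 20 kb from the start of the window. The following 115 kb (84.9% of the window) held no peak. The edges of the window matter at TET3. A peak of score 61.43 ended 1.07 kb before it (chr2:74208069-74208931), and one of score 322.7, stronger than either member, began 2.13 kb after it (chr2:74347132-74348053). Neither was counted.

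**Figure D3:**
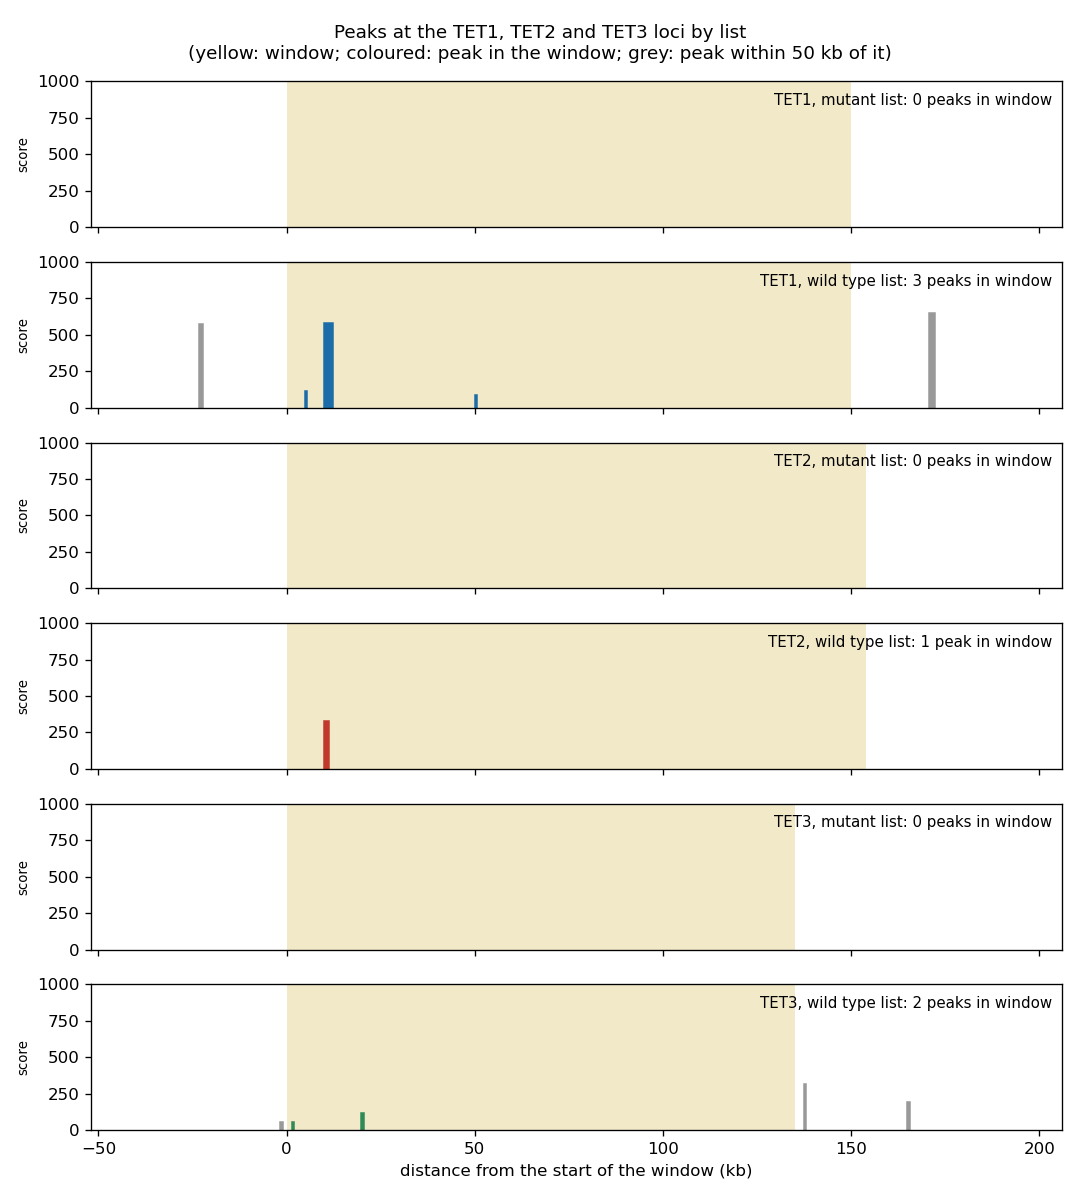
Peaks by distance from the start of each window in kb (x axis) and the authors' score (y axis, from 0), with the mutant list above the wild-type list for each gene. The mutant tracks are empty, and the wild-type peaks in the windows (coloured) lie towards the low end of each yellow window, with the tallest at TET1 (589.51) and TET2 (338.69).

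All 6 peaks lay towards the start of their windows. The centre farthest along was that of the third TET1 peak, at 33.5% of the window, and the others were at 14.8% or less. All 3 genes are on the plus strand in the RefSeq table, so the low end of a window is the side on which transcription begins. The RefSeq starts are on another build than the peaks, so no distance from a peak to a start was measured. The stretch towards the high end of each window was without a wild-type peak, while the mutant list had no peak anywhere in the windows.

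Set against the wild-type list as a whole, the 6 peaks were mostly small. Their scores ran from 65.2 to 589.51 with a median of 122, against a list median of 223.42. Their widths ran from 571 to 2528 bp with a median of 865 bp, against 1116 bp. Of the 6, 4 scored 100 or more, against 77.9% of the list. With 6 peaks, these shares are a description only.

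**Figure D4:**
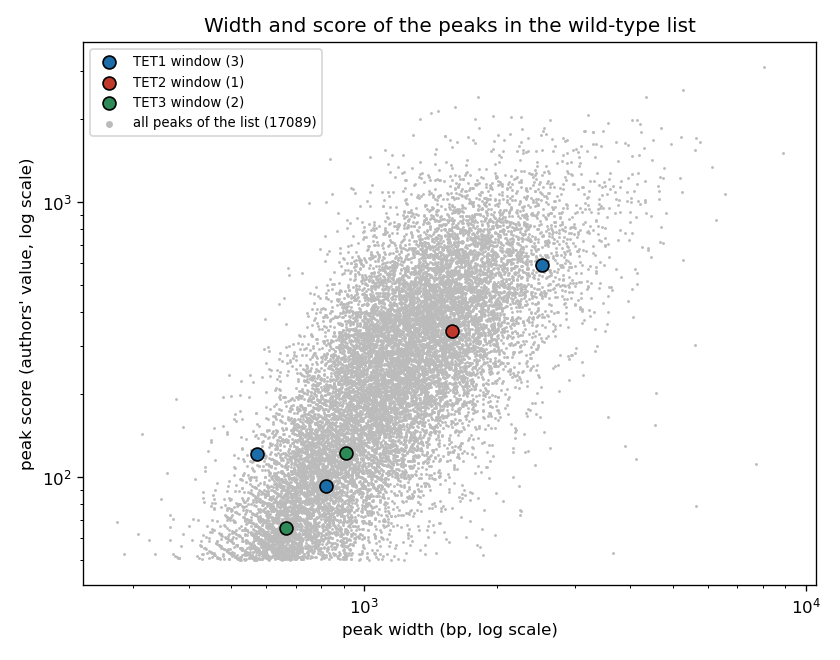
Width in bp (x axis, log scale) and score (y axis, log scale) of all 17089 wild-type peaks (grey), with the peaks of the TET1, TET2 and TET3 windows coloured. The strong TET1 peak and the TET2 peak lie in the upper right, the other 4 in the lower left.

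The surroundings of the 3 loci differed in peaks per length. Within 500 kb on either side of the window, the wild-type list had 14 peaks at TET1, 2 at TET2 and 22 at TET3, or 1.4, 0.2 and 2.2 per 100 kb. The windows themselves held 2 peaks per 100 kb at TET1, 0.649 at TET2 and 1.48 at TET3. TET1 and TET2 thus held more peaks per length than their surroundings. At TET2 this rests on 1 peak, and any window of that width with a peak would exceed these flanks. The direction at TET2 therefore says no more than that the window held a peak. Widened by 50 kb on each side, the TET2 window held 0.394 peaks per 100 kb, against 0.222 in the remaining flanks. At TET3 the direction depended on the edges of the window, since 3 of the flanking peaks lay within 50 kb of it. With the window widened to take them in, TET3 held 2.13 peaks per 100 kb, against 2.11 in the remaining flanks. None of these differences was tested.

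Within these stretches the TET peaks were not the strongest. The strong TET1 peak was number 5 of 17 peaks in the window and its flanks, and the others there were number 15 and 16. The TET2 peak was number 2 of 3. The TET3 peaks were number 20 and 23 of 24. The flanking peaks had median scores of 418.1 around TET1 and 259.24 around TET3. The 2 around TET2 scored 648.94 and 126.96.

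Chromosomes 10, 4 and 2 each held 1 mutant peak, and none was near TET1 or TET3. The one on chromosome 10 was 64.3 Mb from the TET1 window and the one on chromosome 2 was 17.5 Mb from the TET3 window. On chromosome 4 the mutant peak lay 645 kb before the TET2 window, at chr4:105411910-105412349. It scored 93.09 in the mutant list, where scores ran from 50.43 to 94.45. The wild-type list had a peak of score 241.28 at the same place, and the scores of the different lists were not compared. A second wild-type peak, at chr4:105415741-105416778 with a score of 397.9, was the nearest to TET2 on that side.

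CXXC4, the gene that encodes Idax, precedes TET2 on chromosome 4 in the GRCh38.p14 gene order, with 1 protein-coding gene of that table between them. Whether the peaks before TET2 lie on CXXC4 was not assigned, and whether reads of the transfected Idax sequence contribute to them was not tested.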

How the data were processed

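Peak lists were taken as the authors deposited them, 1 for Myc-IdaxDBM and 1 for Myc-Idax, each with chromosome, start, end, peak name and score. Bowtie 0.12.7, MACS 1.4.1 and the build hg19 are named in the submitters' processing notes. Peaks were called over empty-vector cells, per the labels' design text; the way the replicates were joined into 1 list was not given in any source used. The deposited score has the peak caller's own scale, which is not stated. Scores were used only within a list.

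Starts were converted from 0-based to 1-based. Percentiles give the share of the wild-type list with a lower value. Background windows were laid end to end on each chromosome, over the span of the wild-type list there. The counting was tested on simulated lists with known numbers per window. Promoters were taken from RefSeq (GRCh38.p14). The named genes were fixed as TET1, TET2 and TET3, with CXXC4 as the source of the tagged protein. Other genes of methylation were to be counted on an hg19 annotation and were not, since none was used here; the planned protein comparison was also not run. The members and lists were chosen with earlier results of these data known. Figures were drawn with matplotlib 3.10.9. Values were computed in Python 3.11.15 with pandas 2.3.3, numpy 2.4.6 and, for exact binomial 95% limits, SciPy 1.17.1.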

Additional observations from a re-analysis of the deposited data

How the results depend on the processing

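No paired analysis was possible because each construct had 1 list without replicate values, and for the same reason no replicate could be left out. The mutant count stayed at 0 in all 3 windows under a minimum score of 100, a requirement that 50% of the peak lie inside the window, windows wider by 50 kb on each side, and merging of peaks within 1 kb. Of these, the wider windows alone could have raised it from 0. Wild-type counts were the same under the 50% rule and under merging. With the wider windows they were 5 at TET1 (3 in the main count), 1 at TET2 and 5 at TET3 (2 in the main count), since wider windows take in neighbouring peaks. With scores of 100 or more they were 2 at TET1, 1 at TET2 and 1 at TET3. The order of TET1 over TET3 therefore depends on where the windows end, while TET2 had the fewest peaks or shared the fewest under each alternative. The share of all windows with a wild-type peak was 35.8%, 36.2% and 33.6% for the widths of TET1, TET2 and TET3 at scores of 100 or more, and 39.9%, 40.5% and 37.7% when the tiling was shifted to start mid-window. Score percentiles set within the chromosome moved most for the strong TET1 peak (82.4, against 88 in the whole list), and those among peaks of like width are given above. The difference in peaks per 100 kb between window and flanks, an alternative chosen after seeing the data, was 0.667 at TET1, 0.171 at TET2 and 0.0165 at TET3 with the wider windows, against 0.6, 0.449 and -0.719 with the windows as given, so at TET3 it changed sign. Depth is unknown, so how far a peak near the lowest score depends on it could not be judged.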
